A study of Mus musculus with 12 samples.

Results

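Skin of mice that carry the Foxp3-E2 allele was compared between a site exposed to ultraviolet B (UVB) light and a site left untreated. The comparison used every Foxp3-E2 library of the series, which is 6 of its 12 libraries: 3 labelled as irradiated and 3 labelled as untreated. The labels alone placed each library in its group. The remaining 6 libraries came from Foxp3-WT skin, 3 irradiated and 3 untreated, and served to test whether a change differed between the genotypes. All 12 are bulk RNA libraries of whole skin, and reads were counted per gene.

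Foxp3 is the lineage transcription factor of regulatory T cells, which restrain inflammation in skin and other tissues. The mutant concerned lacks the second exon of the gene, a region that is also spliced out in a natural human isoform. UVB is absorbed in the epidermis, where it damages DNA and makes keratinocytes release cytokines and chemokines that draw in neutrophils and other leukocytes. Hair follicles pass through phases of growth, regression and rest. Growing follicles hold dividing matrix cells, pigment-forming melanocytes and the keratins of the hair fibre and its root sheath, and whole skin in the resting phase holds little of their RNA.

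The genotype is written Foxp3-WT and Foxp3-E2 in the sample labels, Foxp3-DE2 in the treatment protocol and Foxp3dExon2 in the series title. The irradiated groups of both genotypes had 6 doses of UVB on a shaved patch of 3 cm by 2 cm on the back flank. The sample labels give 200 mJ/cm2 per dose and the protocol gives 100 mJ/cm2, and this was not settled here. The untreated groups are a control site that received no UVB. Not given in the sources used here are whether that site was shaved, where on the body it lay, and the age, sex and strain of the mice. Libraries are not tied to single mice by any label, so an irradiated and an untreated library may share an animal. Since nothing says that libraries of a group came from separate animals, p-values measure the spread between these libraries only.

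The 6 Foxp3-E2 libraries held 2809142 to 4741726 counts in genes. Foxp3 itself was counted too rarely to be tested. It had 0 counts in all 3 untreated Foxp3-E2 libraries, and 1, 7 and 0 counts in irradiated replicates 1, 2 and 3. The 6 Foxp3-WT libraries had 0 counts, so gene counts say nothing about the second exon or about the genotype labels. Markers of skin were present in every library. Krt14 and Krt5 of basal keratinocytes and Col1a1, Col1a2 and Dcn of fibroblasts all had counts in the 6 Foxp3-E2 libraries. Skeletal muscle genes were present as well. The muscle list took 8.26%, 13.6% and 15.1% of the counts in the 3 untreated Foxp3-E2 libraries, and 3.43% to 4.21% in the irradiated ones. In Foxp3-WT skin it took 1.94% to 7.97%. The B cell marker Cd79a was at or near 0 throughout, with at most 1.09 CPM in a Foxp3-E2 library. CPM are counts scaled to one common library size, with TMM factors for composition. Fewer cells of a type and less RNA per cell cannot be told apart in bulk samples such as these.

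The untreated Foxp3-E2 libraries stood apart from all others. On the first principal component of log2 CPM, which held 39.7% of the variance, they lay at 102, 135 and 132, while the other 9 libraries lay between -73.7 and -11. The irradiated Foxp3-E2 libraries were set apart on the second component (15.9% of the variance), at 69.7 to 74.3 against 6.03 at most elsewhere. Each result below rests on that untreated group, which cannot be left out as a whole without losing the comparison.

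UVB-exposed Foxp3-E2 skin differed from untreated Foxp3-E2 skin in 4202 genes. Hair fibre, pigment and cell division genes rose from a low level in untreated Foxp3-E2 skin towards the level seen in Foxp3-WT skin. Most stress keratin genes, most neutrophil genes that passed the filter, and several interleukins and chemokines, rose above every other library of the series. Some of these genes passed the filter on low counts only through the irradiated Foxp3-E2 libraries, so they had to differ. Most skeletal muscle genes fell, as did 11 of 17 adipocyte and 10 of 17 circadian clock genes. Of 15126 genes tested, 2180 (14.4%) rose and 2022 (13.4%) fell at an adjusted p under 0.05 in edgeR's quasi-likelihood test, with p-values adjusted by Benjamini and Hochberg. In 6271 genes (41.5%) the 3 irradiated and the 3 untreated Foxp3-E2 libraries did not overlap. The biological coefficient of variation was 35.8%. Scaling by total counts in place of TMM gave 4080 genes, of which 66.5% rose, against 51.9% of the 4202 called with TMM. That scaling moved the median log2 change of all genes from 0.02 to 0.26.

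The order of the 4 groups divided these genes. Of the 2180 genes that rose, 1314 (60.3%) had all 3 untreated Foxp3-E2 libraries below the 9 others, an order that 10.8% of all tested genes had. In 608 (27.9%) of them all 3 irradiated Foxp3-E2 libraries lay above the 9 others, against 5.55% of all tested genes. Only 103 genes had both orders. Of the 2022 genes that fell, 1169 (57.8%) had the untreated Foxp3-E2 libraries above all 9 others, against 9.96% of tested genes. In 209 (10.3%) the irradiated Foxp3-E2 libraries lay below all 9 others, against 1.72% of tested genes. Genes were called from the same Foxp3-E2 libraries that set these orders, so shares above those of all tested genes were built in. As a description, more of the genes that changed were set apart by the untreated than by the irradiated Foxp3-E2 libraries.

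**Figure D1:**
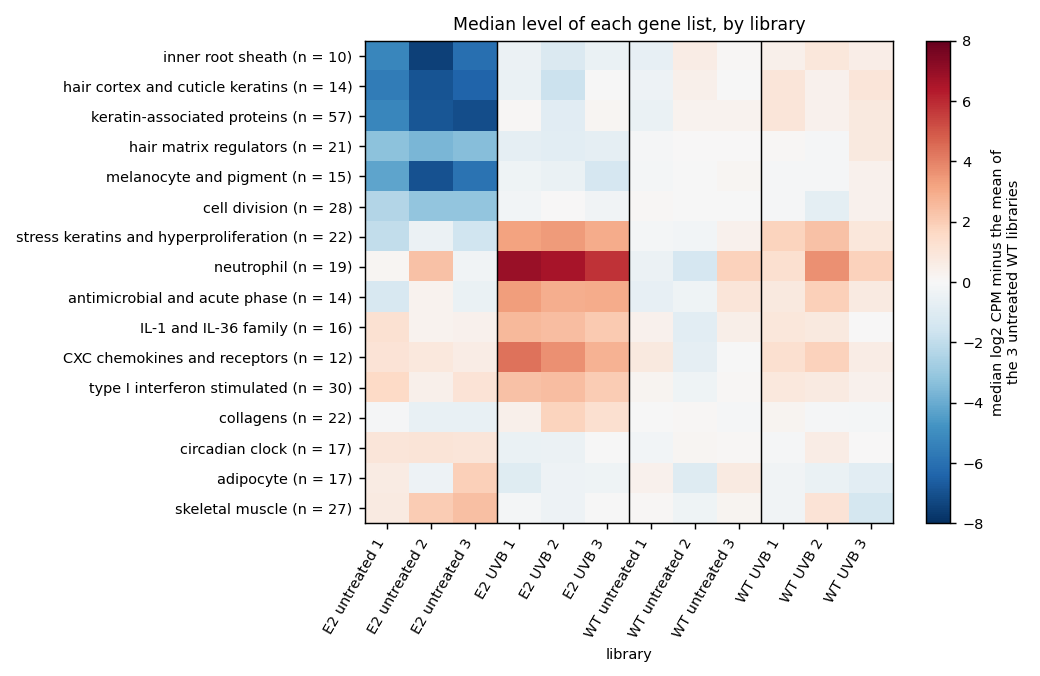
Median log2 CPM of 16 gene lists (rows, with the number of genes tested) in each of the 12 libraries (columns), as a difference from the mean of the 3 untreated Foxp3-WT libraries; red is higher and blue is lower. The hair, melanocyte and cell division lists are blue in the 3 untreated Foxp3-E2 libraries, and the stress keratin, neutrophil, antimicrobial, interleukin and chemokine lists are red in the 3 irradiated ones.

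In Foxp3-WT skin the same test called 3 genes (0.0198%), all higher after UVB: Flg, Klk6 and Rbp2. Klk6 and Rbp2 were named after their values were seen. Klk6, a kallikrein-related peptidase, and Rbp2, a cellular retinol-binding protein, rose in Foxp3-E2 skin too, by 6.15 ± 0.43 and 4.53 ± 0.31 on the log2 scale (SE). The test of the difference between the genotypes (an interaction term in the same fit) called 1585 genes. The change was higher in Foxp3-E2 skin for 853 (5.64%) and lower for 732 (4.84%). This count ranged from 878 to 2585 when 1 library was left out, the lowest without untreated Foxp3-WT replicate 2 and the highest without untreated Foxp3-E2 replicate 1. Left out singly, untreated Foxp3-E2 replicates 2 and 3 gave 971 and 950 genes, irradiated Foxp3-E2 replicates 1 and 2 gave 986 and 938, untreated Foxp3-WT replicates 1 and 3 gave 1017 and 1021, and irradiated Foxp3-WT replicate 2 gave 982. Scaling by total counts put 76.8% of the interaction calls on the higher side, against 53.8% with TMM.

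The call for UVB in Foxp3-E2 skin changed most with 2 covariates. With the mean log2 CPM of the muscle list as a covariate, 892 genes passed. With that of the inner root sheath and hair keratin lists, 1 gene passed, Tnc. The hair covariate itself takes low values in the 3 untreated Foxp3-E2 libraries and high values in the other 9. The UVB effect and the low hair follicle signal of the untreated Foxp3-E2 libraries cannot be told apart in this design. The muscle share did not overlap between the Foxp3-E2 groups either, at 8.26% to 15.1% untreated and 3.43% to 4.21% irradiated. A call lost with the muscle covariate therefore cannot tell a muscle difference from a UVB effect. Counts of list members below are given with the muscle covariate where it moved them by over 1.5 times. They stand beside 14.4% of all tested genes that rose and 13.4% that fell.

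**Figure D2:**
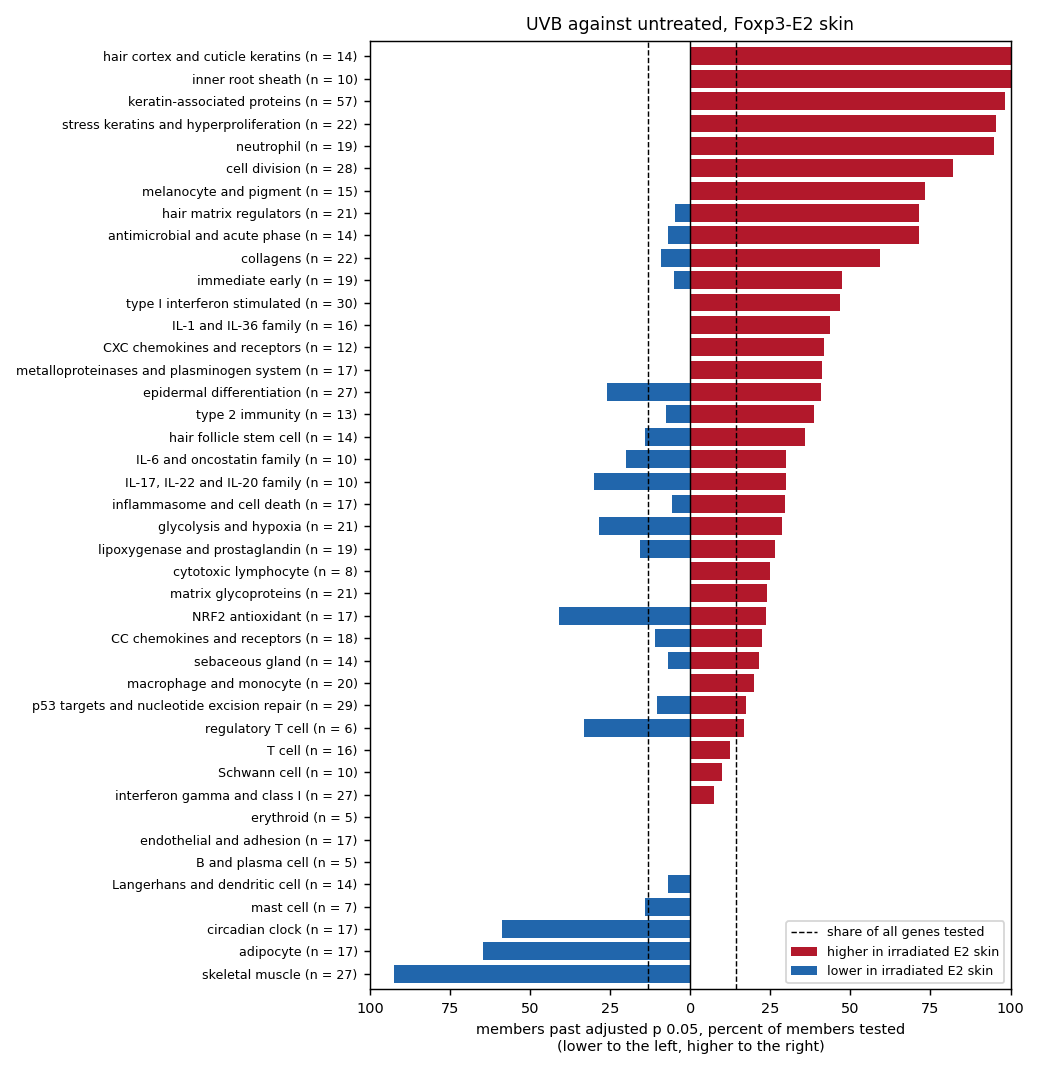
Share of tested members of each of 42 gene lists past adjusted p 0.05 in the comparison of irradiated with untreated Foxp3-E2 skin (horizontal axis, percent; red to the right is higher, blue to the left is lower). The dashed lines are the shares over all tested genes, 14.4% higher and 13.4% lower; the hair, stress keratin and neutrophil lists reach furthest to the right and the muscle list furthest to the left.

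Genes of the hair fibre and its root sheath showed the widest shift. All 10 inner root sheath genes, all 14 keratins of hair cortex and cuticle, and 56 of 57 tested keratin-associated protein genes rose (14.4% of all genes did). Their median log2 changes were 5.16, 5.45 and 6.16, against 0.02 over all genes. With genes at 0 counts in the untreated group set at their lower bound, the first and last medians were 5.13 and 5.86. None of these genes was higher in irradiated Foxp3-E2 skin than in all 9 other libraries. In all 10, in all 14 and in 55 of the 57 the untreated Foxp3-E2 libraries lay below the 9 others.

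Krt25 encodes a type I keratin of the inner root sheath (chr11:99315516-99322951, minus strand, GRCm38). Its level was 104, 18.7 and 30.6 CPM in untreated replicates 1, 2 and 3 and 2088, 1280 and 2149 CPM in irradiated ones. The groups did not overlap, and the irradiated libraries lay near the untreated Foxp3-WT level of 2391 ± 443 CPM (SD, n = 3). The log2 change was 5.17 ± 0.54 (approximate SE; adjusted p = 1.04e-05 in edgeR's quasi-likelihood test). Krt73, a type II keratin of the same sheath, went from 22.7, 7.36 and 12.2 CPM to 678, 506 and 603 CPM. Tchh encodes trichohyalin, which hardens the inner root sheath, and went from 116, 28.3 and 46.4 CPM to 2626, 1394 and 2200 CPM. In all 3 genes the untreated replicate 1 was the highest of its group, and in none did the groups overlap.

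Krt86, a keratin of the hair cortex, had 4.39, 7.36 and 6.95 CPM untreated and 445, 163 and 641 CPM irradiated, a log2 change of 6.06 ± 0.49 (SE; edgeR adjusted p = 1.39e-06). Krtap24-1 had the largest fitted rise of the named genes. It had 0 counts in the 3 untreated Foxp3-E2 libraries and 81.1, 80.3 and 106 CPM in the irradiated ones, at least 327-fold higher when the untreated group is set at 3 counts. Krtap13-1 went from 0.244, 0.566 and 2.5 CPM to 226, 132 and 285 CPM. Keratin-associated proteins form the matrix between keratin filaments of the fibre. Their genes lie in clusters of near-identical copies, so the counts of single members are uncertain.

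Regulators of the hair matrix and pigment cell genes followed the same order. Of 21 matrix regulators 15 rose and 1 fell, with a median log2 change of 2.57. With the muscle covariate 8 rose and 2 fell, and the single fall was lost without irradiated replicate 1. Lef1, the transcription factor through which Wnt signals drive hair matrix cells, had 1.46, 0.283 and 1.39 CPM untreated and 46.2, 39.7 and 35 CPM irradiated. All irradiated values were higher than all untreated ones, and below the 109 ± 11.4 CPM of untreated Foxp3-WT skin. The log2 change was 5.21 ± 0.46 (SE; edgeR adjusted p = 2.41e-06). Hoxc13, which controls hair keratin genes, went from 3.66, 2.26 and 2.5 CPM to 51.1, 31.7 and 54.3 CPM.

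The 14 hair follicle stem cell genes did not move as one: 5 rose and 2 fell. The 5 became 2 with the muscle covariate. Krt75, a companion layer keratin, rose by 2.64 ± 0.29 (log2, SE). Krt15, a keratin of basal and bulge cells, fell from 2383, 1353 and 1289 CPM to 208, 169 and 99.5 CPM. No irradiated library came near an untreated one, and the log2 change was -3.39 ± 0.36 (SE; edgeR adjusted p = 1.05e-05).

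Of 15 melanocyte and pigment genes 11 rose, with a median log2 change of 6.07, or 4.51 with the 6 genes at 0 counts set at their bound. Tyr encodes tyrosinase, the rate-limiting enzyme of melanin synthesis (chr7:87424771-87493512, minus strand). It had 0 counts in the 3 untreated Foxp3-E2 libraries, against 38.4, 22.8 and 26.2 CPM after irradiation. That is at least 109-fold higher with the untreated group at 3 counts (edgeR adjusted p = 2.38e-06). Untreated Foxp3-WT skin had 59.5 ± 6.88 CPM (SD, n = 3), above all irradiated Foxp3-E2 libraries. Dct, dopachrome tautomerase, went from 9.02, 7.64 and 9.45 CPM to 221, 207 and 254 CPM. Mlana, a melanosome protein, went from 1.46, 0.849 and 0.278 CPM to 63.4, 59.3 and 64.2 CPM. The irradiated replicates of Dct and Mlana lay close together and far above the untreated ones.

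The promoters of Tyr and Dct are printed because the M-box, the sequence CATGTG to which the melanocyte factor MITF binds, occurs in both. Sequences are from RefSeq (GRCm38.p6), 200 bases that end at the base before the annotated start, 5′ to 3′ on the gene's strand, with the matched motif in capitals. Tyr lies at chr7:87493513-87493712 and Dct at chr14:118052247-118052446, both on the minus strand.
Tyr: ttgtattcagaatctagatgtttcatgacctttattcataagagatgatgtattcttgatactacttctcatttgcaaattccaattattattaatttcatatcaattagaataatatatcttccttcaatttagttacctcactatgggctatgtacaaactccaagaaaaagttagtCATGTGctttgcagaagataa
Dct: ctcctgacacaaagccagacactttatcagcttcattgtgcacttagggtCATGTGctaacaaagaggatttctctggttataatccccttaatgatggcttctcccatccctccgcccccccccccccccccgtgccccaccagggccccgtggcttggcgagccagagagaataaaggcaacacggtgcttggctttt

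Searched on both strands of the 250 bases before the start, CATGTG occurred in 12.2% of 27025 promoters and in 7.65% of the 11046 promoters of tested genes. Among the melanocyte genes with a promoter entry it occurred in 6 of the 7 that rose and in 0 of the 3 that did not pass. For the cell division list, TTTGAA, the core of the cell cycle homology region, occurred in 6 of 19 that rose, in 2 of 4 that did not and in 16.3% of all promoters. A match describes letters in a window and is not evidence of binding.

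Cell division genes rose in Foxp3-E2 skin, and none had its irradiated Foxp3-E2 libraries above all 9 others. Of 28 such genes 23 rose and 0 fell, with a median log2 change of 2.62, and 14 rose with the muscle covariate. In 22 of the 28 the untreated Foxp3-E2 libraries lay below all 9 others. Mki67, a marker of cycling cells, had 27.1, 9.62 and 6.67 CPM untreated and 149, 106 and 97 CPM irradiated, against 143 ± 19.5 CPM in untreated Foxp3-WT skin. Every irradiated library exceeded every untreated one, with a log2 change of 3.01 ± 0.46 (SE; edgeR adjusted p = 0.000386). Top2a, topoisomerase II alpha, which untangles replicated DNA, rose by 2.77 ± 0.27. Cdc20, an activator of the anaphase-promoting complex, rose by 3.51 ± 0.35. Values of both in irradiated Foxp3-E2 skin, from 101 to 181 CPM, bracketed the untreated Foxp3-WT means of 144 and 110 CPM.

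**Figure D3:**
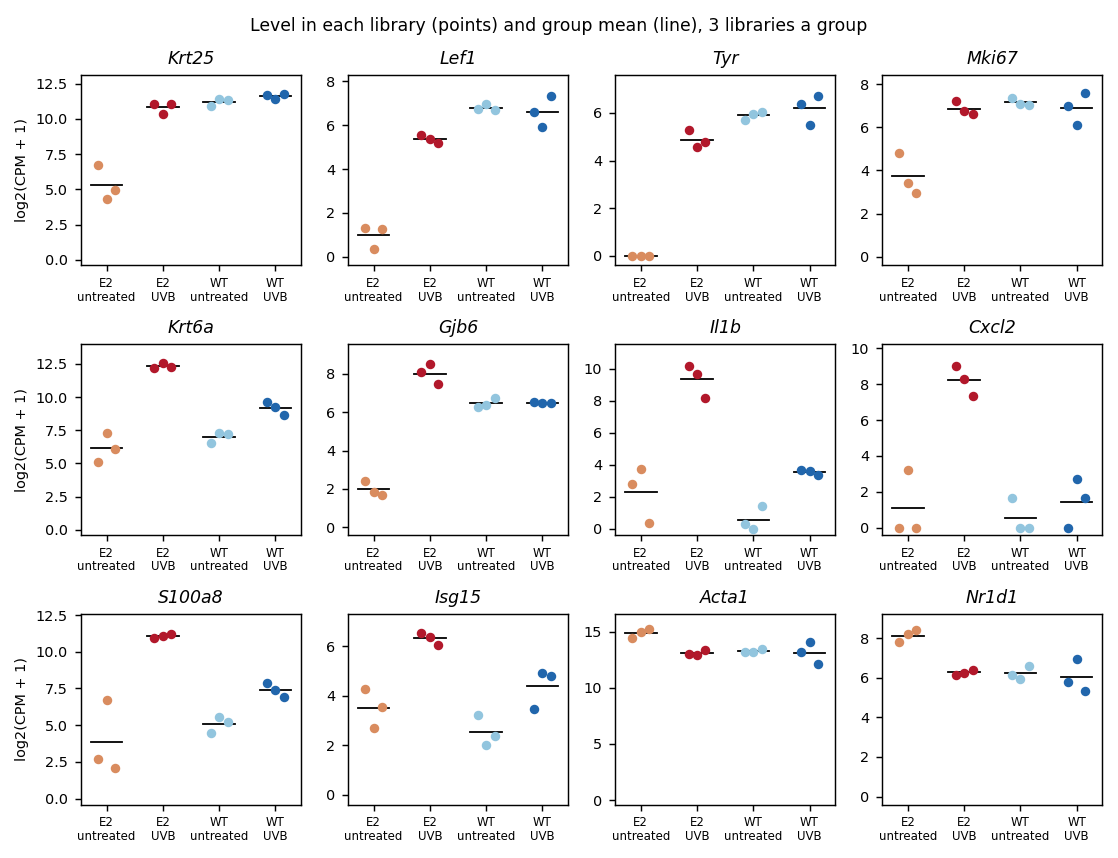
Level of 12 genes in each library, as log2(CPM + 1), with 3 points and a mean line per group. Krt25, Lef1, Tyr and Mki67 are low in untreated Foxp3-E2 skin alone, Krt6a, Gjb6, Il1b, Cxcl2, S100a8 and Isg15 are highest in irradiated Foxp3-E2 skin, and Acta1 and Nr1d1 are highest in untreated Foxp3-E2 skin.

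Of 22 keratinocyte stress genes 21 rose, with a median log2 change of 5.41 (5.28 with 1 gene at its bound). In 17 of the 22 the irradiated Foxp3-E2 libraries lay above all 9 others, against 5.55% of all tested genes. Members such as Sprr2b and Il24 passed the filter on low counts through that group alone and had to differ. These counts and the median therefore describe the tested genes alone. Krt6a, a keratin induced in wounded and hyperproliferative epidermis (chr15:101689910-101694307, minus strand), had 32.9, 152 and 66.7 CPM untreated and 4571, 6131 and 4797 CPM irradiated. In Foxp3-WT skin it averaged 131 ± 35.8 CPM untreated and 594 ± 195 CPM irradiated (SD, n = 3). The irradiated Foxp3-E2 libraries were far above both, with a log2 change of 5.94 ± 0.52 (SE; edgeR adjusted p = 2.38e-06). The Foxp3-WT change, 2.18, did not pass.

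The connexin genes Gjb6 and Gjb2, whose gap junction channels appear in hair follicles and in thickened epidermis, had the smallest p of this list. Gjb6 went from 4.39, 2.55 and 2.22 CPM to 271, 364 and 175 CPM, a log2 change of 6.43 ± 0.34 (SE; edgeR adjusted p = 7.08e-08). Gjb2 went from 13.2, 10.8 and 5.83 CPM to 587, 632 and 456 CPM. Both genes had untreated Foxp3-E2 values below, and irradiated values above, those of Foxp3-WT skin. Krt17, another stress keratin that hair follicles also express, rose by 2.75 ± 0.24 (log2, SE).

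Sprr2d, a small proline-rich protein of the cornified envelope, had 1.95, 9.05 and 3.89 CPM untreated and 949, 1008 and 719 CPM irradiated. The irradiated values exceeded the irradiated Foxp3-WT mean of 57.1 ± 27.8 CPM, and the log2 change was 7.50 ± 0.87 (SE; edgeR adjusted p = 4.48e-05). Sprr2 genes are near-identical copies in one cluster, so reads may be split among them. The Sprr2d promoter (RefSeq, chr3:92338940-92339139, plus strand) is shown for its AP-1 motif, TGANTCA, the element bound by Jun and Fos.
Sprr2d: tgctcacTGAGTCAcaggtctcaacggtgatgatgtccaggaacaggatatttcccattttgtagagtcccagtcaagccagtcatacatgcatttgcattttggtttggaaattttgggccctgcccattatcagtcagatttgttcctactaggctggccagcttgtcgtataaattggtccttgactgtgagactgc

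In the stress keratin list TGANTCA occurred in 7 of 15 promoters, all 7 of them Sprr genes of related sequence, against 6.87% of all promoters. The AP-1 subunit gene Junb went from 120, 67.6 and 86.4 CPM to 479, 429 and 273 CPM, a log2 change of 2.10 ± 0.28 (SE; edgeR adjusted p = 7.48e-05). All irradiated Junb values exceeded the untreated ones. Of 19 immediate early genes, which respond to stimuli without new protein synthesis, 9 rose and 1 fell. The single fall was lost when any 1 of 8 libraries was left out (each untreated Foxp3-WT library, each irradiated Foxp3-E2 library, and untreated Foxp3-E2 replicates 2 and 3), and with the muscle covariate. Dusp2, a phosphatase that acts on MAP kinases, rose by 5.22 ± 0.57 (log2, SE).

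Epidermal differentiation genes moved both ways. Of 27 genes 11 rose and 7 fell, and the 7 became 3 with the muscle covariate. Casp14, a protease of cornifying keratinocytes, went from 48.7, 46.1 and 45.8 CPM to 549, 518 and 471 CPM. Its replicates were tight in both groups, and its log2 change was 3.45 ± 0.32 (SE; edgeR adjusted p = 3.6e-06). Lce3c, a late cornified envelope gene, rose by 4.25 ± 0.44. Flg, which encodes filaggrin, went from 135, 98.5 and 142 CPM to 772, 726 and 1098 CPM. Flg rose in Foxp3-WT skin as well, and the difference between the genotypes, 0.83 ± 0.38 on the log2 scale, did not pass (interaction adjusted p = 0.182 in edgeR).

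Flg2, the filaggrin-related gene filaggrin-2, went the opposite way to Flg. It had 564, 367 and 289 CPM untreated and 36.5, 36.3 and 27.3 CPM irradiated, a log2 change of -3.60 ± 0.36 (SE; edgeR adjusted p = 6.67e-06). Krt77, a suprabasal keratin, fell from 2735, 1924 and 1618 CPM to 69.4, 79.4 and 6.2 CPM. Irradiated replicate 3 was the lowest, and the log2 change was -5.33 ± 0.80 (SE; edgeR adjusted p = 0.00038). The suprabasal pair partners Krt1 and Krt10 went opposite ways too. Krt1 was at 471 to 808 CPM untreated and 2802 to 3200 CPM irradiated (edgeR adjusted p = 0.00104). Krt10 was at 1175 to 1977 CPM untreated and 545 to 799 CPM irradiated (edgeR adjusted p = 0.018). The Krt10 call was lost without untreated replicate 1, irradiated replicate 1 or irradiated replicate 2 (adjusted p of 0.0551, 0.0507 and 0.0833) and with scaling by total counts (0.0618). Krt1 had an adjusted p of 0.0642 and Krt10 of 0.316 when the muscle covariate was added.

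Of 16 genes of the IL-1 and IL-36 family 7 rose, and 4 did with the muscle covariate. In 9 of the 16 the irradiated Foxp3-E2 libraries lay above all others. Among these Nlrp3 passed the filter on low counts through that group alone and had to differ. Il1b, the secreted IL-1 beta (chr2:129364570-129371139, minus strand), had 5.85, 12.4 and 0.278 CPM untreated and 1159, 817 and 291 CPM irradiated. The lowest irradiated library was replicate 3, still far above the highest untreated one. The log2 change was 6.93 ± 0.79 (SE; edgeR adjusted p = 3.8e-05). In Foxp3-WT skin Il1b averaged 0.628 CPM untreated and 10.8 CPM irradiated, and the interaction did not pass (edgeR adjusted p = 0.26).

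Il1rn, the receptor antagonist, went from 109, 52.9 and 56.7 CPM to 502, 330 and 277 CPM. Il1f6, which encodes IL-36 alpha, went from 6.09, 7.36 and 4.72 CPM to 112, 87.8 and 72.2 CPM. Neither gene's groups overlapped, and the log2 changes were 2.34 ± 0.29 and 3.90 ± 0.59 (SE). Il33, an alarmin stored in the nuclei of epithelial and stromal cells, had 52.4, 45.6 and 33.3 CPM untreated and 114, 203 and 111 CPM irradiated. Both groups lay above Foxp3-WT skin, which averaged 11.4 and 8.71 CPM. The change on the log2 scale was 1.71 ± 0.34 (SE; edgeR adjusted p = 0.00231), and it did not pass with the muscle covariate (adjusted p = 0.0996).

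Osm, oncostatin M, a cytokine of neutrophils and macrophages that acts on keratinocytes, had 0, 1.13 and 0.278 CPM untreated and 135, 144 and 39.4 CPM irradiated. Irradiated replicate 3 was lowest, and all 3 were above the 9 other libraries. Osm passed the filter on low counts through these libraries alone, so it had to differ and its order is no separate result. Its log2 change was 7.79 ± 0.77 (SE; edgeR adjusted p = 1.61e-05), with an adjusted p of 0.0677 when the muscle covariate was added. Il19, an IL-20 family cytokine, had 0 counts untreated and 11.2, 10.4 and 6.93 CPM irradiated, at least 36.6-fold higher. It too passed the filter through the irradiated Foxp3-E2 group alone and had to differ. Il20ra, a receptor chain for that family, fell from 52.4, 35.9 and 30.8 CPM to 3.26, 6.78 and 2.55 CPM. In Foxp3-WT skin Il20ra was lower after irradiation too, at 37 counts against 151 untreated, a change that did not pass. Within the IL-17, IL-22 and IL-20 list 3 of 10 rose and 3 fell. The 3 falls became 1 with the muscle covariate.

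Of 13 type 2 immunity genes 5 rose and 1 fell, where 14.4% of all genes rose and 13.4% fell. The fall was lost without irradiated replicate 1, and the 5 became 3 with the muscle covariate. Arg1, the arginase of alternatively activated macrophages that keratinocytes also express, went from 55.8, 23.2 and 21.7 CPM to 336, 513 and 381 CPM. Its log2 change was 3.60 ± 0.36 (SE; edgeR adjusted p = 6.66e-06), and Foxp3-WT skin averaged 60.6 and 70.4 CPM. Il4ra, the receptor chain through which both IL-4 and IL-13 signal, went from 28.3, 23.8 and 23.1 CPM to 109, 201 and 125 CPM. Arg1 and Il4ra in irradiated Foxp3-E2 skin lay above all 9 other libraries.

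Of 12 CXC chemokines and receptors 5 rose, with a median log2 change of 2.04. The 5 became 3 without untreated replicate 2, and 3 with the muscle covariate. Cxcl2, a ligand of the neutrophil receptor CXCR2, had 0, 8.49 and 0 CPM untreated and 519, 316 and 163 CPM irradiated. Only untreated replicate 2 had any Cxcl2 counts, and no irradiated library overlapped it. This was a log2 change of 6.91 ± 1.09 (SE; edgeR adjusted p = 0.000538). Cxcl3, a second ligand of that receptor, went from 0, 1.98 and 1.39 CPM to 79.2, 45 and 11.3 CPM. Cxcl3 passed the filter on low counts through the irradiated Foxp3-E2 group alone and had to differ. The receptor gene Cxcr2 had 1 count in the untreated group and 31.8, 22.5 and 1.82 CPM irradiated, and it was lowest in replicate 3.

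The interaction test called 0 of the 12 CXC genes in edgeR, 3 at an unadjusted p under 0.05, 2 in DESeq2 and 0 in limma voom. The promoters of Cxcl2 (chr5:90903699-90903898) and Cxcl3 (chr5:90785901-90786100), both on the plus strand, are shown for the motif of the inflammatory factor NF-kappaB, searched as GGG, any 2 bases and TTTCC on both strands. Both lie in one chemokine cluster.
Cxcl2: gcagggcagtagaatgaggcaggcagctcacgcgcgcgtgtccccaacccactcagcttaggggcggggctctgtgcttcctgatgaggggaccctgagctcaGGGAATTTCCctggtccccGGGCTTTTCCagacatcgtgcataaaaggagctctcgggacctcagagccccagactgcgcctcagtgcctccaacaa
Cxcl3: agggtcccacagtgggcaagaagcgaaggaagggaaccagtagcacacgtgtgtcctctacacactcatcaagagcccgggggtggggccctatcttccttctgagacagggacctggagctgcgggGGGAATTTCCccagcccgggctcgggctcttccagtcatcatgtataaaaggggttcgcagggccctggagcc

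This motif occurred in 1.4% of all promoters, in 2 of 5 CXC genes that rose and in 0 of 6 that did not pass. It is the pair printed here, with 2 matches in Cxcl2 and 1 in Cxcl3.

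Of 18 CC chemokines and receptors 4 rose and 2 fell, where 14.4% of all genes rose and 13.4% fell. With the muscle covariate the counts were 2 and 1, and the 2 falls became 1 without untreated replicate 1, irradiated replicate 1 or irradiated replicate 3. Ccl4, a chemoattractant for monocytes and lymphocytes, had 0.487, 3.11 and 0.278 CPM untreated and 508, 298 and 182 CPM irradiated. Ccl3, a chemoattractant for monocytes and other leukocytes, had 2.44, 2.55 and 0 CPM untreated and 273, 151 and 68.2 CPM irradiated. Replicate 1 was highest and replicate 3 lowest in both genes, with log2 changes of 8.0 ± 0.92 and 6.58 ± 0.80 (SE). Ccl3 would not have passed the filter on low counts without the irradiated Foxp3-E2 group and had to differ. Ccl27a, the chemokine that keratinocytes use to hold T cells in the epidermis, fell from 326, 172 and 152 CPM to 12.2, 14.5 and 27.7 CPM. The fall was -3.60 ± 0.45 on the log2 scale (SE; edgeR adjusted p = 6.16e-05).

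Of 30 neutrophil genes in the files 11 were under the filter on low counts. Of the 19 tested genes 18 rose, with a median log2 change of 6.40, or 5.83 with genes at 0 counts at their bound. The count was 12 with the muscle covariate. Genes with counts almost only in irradiated Foxp3-E2 libraries, such as Clec4e, Mcemp1 and Gm5483, passed the filter through that group and had to differ. The count and median therefore describe the tested genes alone. The list took 0.0122% to 0.0233% of counts in untreated Foxp3-E2 libraries, 0.675% to 0.731% in irradiated ones and 0.0479% to 0.0849% in irradiated Foxp3-WT libraries. This share sums all 30 genes and is not a measure of neutrophil RNA alone. In irradiated Foxp3-E2 skin S100a8 and S100a9 had 22526 and 21688 counts. The 11 genes under the filter had from 0 (Mpo) to 88 (Mmp8) counts there. S100a8, a subunit of the antimicrobial protein calprotectin, had 5.36, 105 and 3.33 CPM untreated and 1916, 2176 and 2366 CPM irradiated. S100a9, its partner, had 4.14, 58 and 6.95 CPM untreated and 2010, 2135 and 1996 CPM irradiated. Untreated replicate 2 was the highest of its group for both genes, and it stayed far below the irradiated libraries. The log2 changes were 5.83 ± 0.99 (S100a8; edgeR adjusted p = 0.000889) and 6.48 ± 0.94 (S100a9; 0.000275). The adjusted p of S100a8 was 0.0547 with the muscle covariate.

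Keratinocytes can express S100a8 and S100a9 too, so genes confined more closely to myeloid cells are given beside them. Clec4e, the Mincle receptor, had 0 counts untreated and 107, 54 and 29.9 CPM irradiated, at least 248-fold higher. Csf3r, the receptor for granulocyte colony-stimulating factor, had 0 counts untreated and 38.1, 37 and 6.93 CPM irradiated, at least 111-fold higher. One Foxp3-WT library, untreated replicate 1, reached 8.27 CPM of Csf3r. Its adjusted p with the muscle covariate was 0.0769. Clec4e and Csf3r were highest in irradiated replicate 1 and lowest in replicate 3. Neither would have passed the filter on low counts without the irradiated Foxp3-E2 group. Both therefore had to differ, and their rise is no separate result. Stfa2, a stefin gene of the neutrophil list with near-identical neighbours, went from 0.487, 3.11 and 0 CPM to 119, 156 and 131 CPM. Unlike Clec4e and Csf3r it was not lowest in irradiated replicate 3. It is given as a list member, not as a gene confined to myeloid cells.

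Other leukocyte lists moved less. Of 20 macrophage and monocyte genes 4 rose, where 14.4% of all genes did, so this share was not far from that of all genes. The 4 became 2 without untreated replicate 2 or 3 or irradiated replicate 1 or 2, and 2 with the muscle covariate. The list took 0.171% to 0.394% of counts untreated and 0.351% to 0.41% irradiated. Cd14, a receptor for bacterial lipopolysaccharide that neutrophils also carry, went from 14.6, 6.51 and 4.72 CPM to 352, 296 and 121 CPM. Ly6c2, a marker of inflammatory monocytes, had 1 count untreated and 20.4, 19.4 and 17.5 CPM irradiated, a ratio of 216 (exact 95% interval 38.4 to 8580, counting error only). Ly6c2 passed the filter on low counts through the irradiated Foxp3-E2 group alone and had to differ. The general macrophage markers Adgre1 and Csf1r overlapped between the groups, at 7.07 to 31.2 against 22 to 28.1 CPM and at 39.5 to 83.3 against 47.1 to 80.9 CPM.

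Of 16 T cell genes 2 rose, a share (14.4% over all genes) near the background, and 4 rose without irradiated Foxp3-WT replicate 3. Neither kept its call with the muscle covariate. Trbc2, a constant segment of the T cell receptor beta chain, went from 18.8, 26 and 16.9 CPM to 35.9, 51.3 and 52.1 CPM. The T cell marker Cd3e overlapped between the groups, at 1.94 to 7.07 against 0.729 to 6.05 CPM. Of 6 tested genes of the regulatory T cell list (16 in the files) 1 rose and 2 fell. The 2 falls became 1 without untreated replicate 1 and 0 with the muscle covariate. Areg, an epidermal growth factor family ligand, rose by 2.71 ± 0.51 (log2, SE), and Ikzf2, the factor Helios, fell from 119, 87.4 and 63.6 CPM to 20.9, 24.9 and 17.1 CPM. Ikzf2 and Trbc2 had adjusted p of 0.122 and 0.147 with the muscle covariate. Areg and Ikzf2 are also expressed outside regulatory T cells, and Foxp3 itself was below the filter.

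Langerhans cell and mast cell genes gave few calls. Cd207, the langerin of Langerhans cells, had 26.1, 9.62 and 11.4 CPM untreated and 3.26, 1.21 and 3.28 CPM irradiated. It was the only 1 of 14 genes of the Langerhans and dendritic cell list to pass, with a log2 change of -2.61 ± 0.84 (SE; edgeR adjusted p = 0.0318). That call was lost when any 1 of 5 libraries was left out (untreated Foxp3-E2 replicate 1, each irradiated Foxp3-E2 library, untreated Foxp3-WT replicate 3), with adjusted p of 0.118, 0.0728, 0.112, 0.0662 and 0.0504. Scaling by total counts gave 0.0519 and the muscle covariate 0.124. Mrgprb2, the mast cell receptor that triggers degranulation without IgE, had 7.07, 9.34 and 10.8 CPM untreated and 0 counts irradiated, at least 31.6-fold lower. The mast cell proteases Cma1 and Cpa3 were not lower, at 5.83 to 22.9 against 8.7 to 28.8 CPM and at 4.24 to 14.6 against 6.26 to 16.2 CPM. Of 17 endothelial and adhesion genes 0 passed in edgeR, in DESeq2 and in limma voom, and 0 had an unadjusted p under 0.05.

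Part of the type I interferon stimulated genes rose in Foxp3-E2 skin, and in 14 of 30 the irradiated libraries lay above all 9 others. Of the 30 genes 14 rose and 0 fell, with a median log2 change of 1.11 against 0.02 over all genes. The 14 became 9 without untreated replicate 2 and 3 with the muscle covariate. Isg15, a ubiquitin-like antiviral protein (chr4:156199424-156200818, minus strand), had 18.3, 5.38 and 10.6 CPM untreated and 92.2, 80.8 and 64.9 CPM irradiated. Foxp3-WT skin averaged 5.16 ± 2.76 CPM untreated and 22.2 ± 10.5 CPM irradiated (SD, n = 3). On the log2 scale the change was 2.79 ± 0.48 (SE; edgeR adjusted p = 0.00072). Bst2, the antiviral membrane protein tetherin, went from 36.3, 17.5 and 25.3 CPM to 101, 92.7 and 99.5 CPM.

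The interaction called 0 of the 30 interferon genes in edgeR, 3 at an unadjusted p under 0.05, 1 in DESeq2 and 0 in limma voom. For Isg15 the difference between the genotypes was 0.69 ± 0.67 and for Bst2 0.37 ± 0.43 on the log2 scale (SE). The promoters of Isg15 (chr4:156200819-156201018) and Bst2 (chr8:71537473-71537672), both on the minus strand, are shown for the interferon-stimulated response element, searched as TTTC, any 2 bases and TTTC on both strands. It appears here on the opposite strand, in overlapping copies.
Isg15: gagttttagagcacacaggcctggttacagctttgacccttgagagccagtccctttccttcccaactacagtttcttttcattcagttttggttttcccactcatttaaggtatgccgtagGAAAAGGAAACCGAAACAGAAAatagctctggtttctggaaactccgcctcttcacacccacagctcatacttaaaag
Bst2: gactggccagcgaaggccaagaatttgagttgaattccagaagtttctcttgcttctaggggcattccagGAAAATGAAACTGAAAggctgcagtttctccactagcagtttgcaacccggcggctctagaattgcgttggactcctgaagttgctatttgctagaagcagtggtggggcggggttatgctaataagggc

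This element occurred in 3.04% of all promoters. Of the interferon genes with a promoter entry it occurred in 8 of 11 that rose and in 3 of 10 that did not pass.

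Antimicrobial and acute phase genes rose in 10 of 14 cases and fell in 1, with a median log2 change of 4.22 (4.07 with 1 gene at its bound). Slpi, a secreted inhibitor of neutrophil elastase, went from 1.95, 3.68 and 2.78 CPM to 137, 149 and 94.8 CPM, a log2 change of 5.50 ± 0.59 (SE; edgeR adjusted p = 1.51e-05). Saa3, an acute phase apolipoprotein, went from 0.731, 1.98 and 0.556 CPM to 46.8, 23 and 61.6 CPM. Orm1, an acute phase glycoprotein in liver, fell from 106, 71.3 and 76.1 CPM to 12, 15 and 6.56 CPM. Orm1 was the 1 member that fell, and a second passed without untreated replicate 2.

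Lipid mediator genes split. Of 19 genes of the lipoxygenase and prostaglandin list 5 rose and 3 fell, and the 3 became 1 without untreated replicate 1 or with the muscle covariate. Alox8, a lipoxygenase of mouse skin, went from 1.71, 3.11 and 1.67 CPM to 76.4, 56.1 and 73.6 CPM, near the 72.9 ± 9.31 CPM of untreated Foxp3-WT skin. Alox12e, the epidermis-type 12-lipoxygenase, fell from 461, 297 and 207 CPM to 42.7, 31.7 and 47.8 CPM.

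Of 22 collagens 13 rose and 2 fell, with a median log2 change of 1.15. The 13 became 8 without untreated replicate 2 or irradiated replicate 2, and 1 with the muscle covariate. Col12a1, a fibril-associated collagen, went from 6.82, 6.51 and 7.5 CPM to 64.2, 171 and 85.3 CPM, a log2 change of 3.94 ± 0.37 (SE; edgeR adjusted p = 3.66e-06). Col6a3, a chain of the microfibrillar collagen VI, went from 32.9, 39 and 28.1 CPM to 73.7, 171 and 147 CPM. Irradiated replicate 1 was the lowest and replicate 2 the highest for both collagens. Col6a3 did not pass with the muscle covariate (adjusted p = 0.0669). Col4a6, a basement membrane collagen, fell from 24.9, 6.79 and 10.6 CPM to 2 counts in all, a ratio of 0.013 (exact 95% interval 0.00156 to 0.0477).

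Tnc encodes tenascin C, a glycoprotein laid down in wounds and around growing hair follicles (chr4:63959785-64047015, minus strand). It had 0.731, 3.68 and 0.556 CPM untreated and 58.5, 125 and 55 CPM irradiated, against 22.7 ± 7.65 CPM in untreated Foxp3-WT skin. The irradiated libraries lay above, and the untreated ones below, the Foxp3-WT values, with a log2 change of 5.59 ± 0.56 (SE; edgeR adjusted p = 7.33e-06). Of 21 matrix glycoprotein genes 5 rose, and 3 did with the muscle covariate. Of 17 genes of metalloproteinases and the plasminogen system 7 rose, and 4 did with the muscle covariate. Plaur, the urokinase receptor, went from 3.66, 4.81 and 6.95 CPM to 273, 194 and 137 CPM. Mmp13, a collagenase, had 0, 5.66 and 0 CPM untreated and 41.6, 54.5 and 50.7 CPM irradiated.

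Of 29 p53 target and nucleotide excision repair genes 5 rose and 3 fell, where 14.4% of all genes rose and 13.4% fell, so these shares were near those of all genes. The 5 became 1 without untreated replicate 2, 2 without irradiated replicate 1 and 3 without untreated replicate 3 or irradiated replicate 2 or 3. With the muscle covariate the counts were 1 and 0. Pmaip1, the p53-induced death gene Noxa, went from 6.58, 3.68 and 1.11 CPM to 32.9, 44 and 28.4 CPM, a log2 change of 3.19 ± 0.49 (SE; edgeR adjusted p = 0.000324). Ccng1, cyclin G1, a p53 target that muscle also expresses, fell from 568, 1112 and 1294 CPM to 201, 172 and 143 CPM. The libraries with the highest muscle share also had the highest Ccng1, which did not pass with the muscle covariate (adjusted p = 0.132).

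Of 17 antioxidant genes under the factor NRF2, 4 rose and 7 fell. The 7 became 3 without irradiated replicate 1, 4 without irradiated replicate 3 and 0 with the muscle covariate, and the 4 became 2 with that covariate. Slc7a11, the cystine transporter that feeds glutathione synthesis, had 0.244, 1.13 and 0 CPM untreated and 61.8, 52.8 and 46.3 CPM irradiated. It lay above the Foxp3-WT means of 19.5 and 18.3 CPM, with a log2 change of 6.81 ± 0.64 (SE; edgeR adjusted p = 3.69e-06). Gstm1, a glutathione transferase, fell by 1.59 on the log2 scale and did not pass with the muscle covariate (edgeR adjusted p = 0.374).

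Of 21 glycolysis and hypoxia genes 6 rose and 6 fell. The 6 falls became 0 without untreated replicate 3, without irradiated replicate 1 or with the muscle covariate, 3 without untreated replicate 2 and 2 without irradiated replicate 2. Slc2a1, the glucose transporter of epidermis, had 93.8, 69 and 49.7 CPM untreated and 285, 407 and 238 CPM irradiated. It was lower, not higher, in irradiated than in untreated Foxp3-WT skin (27.6 against 50.5 CPM, a change that did not pass), and the interaction was 3.00 ± 0.34 (SE; edgeR adjusted p = 8.73e-05). Hif1a, the hypoxia-inducible factor, went from 70.4, 65.4 and 56.4 CPM to 166, 211 and 125 CPM.

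Of 27 skeletal muscle genes 25 fell (13.4% of all genes did), with a median log2 change of -2.07. Acta1, skeletal alpha-actin, had 22250, 33170 and 38500 CPM untreated and 8323, 7626 and 10340 CPM irradiated. The groups did not overlap, and untreated replicate 1 was the lowest of its group. The fitted log2 change was -1.84 ± 0.42 (SE; edgeR adjusted p = 0.00475). Ckm, muscle creatine kinase, went from 2363, 4976 and 6686 CPM to 980, 1084 and 1409 CPM. Ttn, the giant sarcomere protein titin, went from 7670, 17250 and 16310 CPM to 3553, 2230 and 2893 CPM. With the mean of their own list as covariate these 3 genes and the other muscle genes did not pass, as that covariate takes up their change by construction.

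Of 17 adipocyte genes 11 fell, with a median log2 change of -1.63. The 11 became 5 without untreated replicate 3 or irradiated replicate 1, 7 without irradiated replicate 2 and 3 with the muscle covariate. Lpl, lipoprotein lipase, which muscle also expresses, went from 753, 1229 and 1327 CPM to 299, 321 and 296 CPM, a log2 change of -1.85 ± 0.27 (SE; edgeR adjusted p = 0.000168). Pnpla2, the triglyceride lipase ATGL, went from 393, 389 and 555 CPM to 141, 141 and 109 CPM. The adipocyte hormone gene Adipoq spread widely, at 119, 39.3 and 377 CPM untreated and 37.8, 55.7 and 55.8 CPM irradiated, and the groups overlapped. Its log2 change of -1.84 ± 0.57 (SE; edgeR adjusted p = 0.0285) became -0.69 without untreated replicate 3 (adjusted p = 0.253). The call was also lost without irradiated replicate 1, 2 or 3 (adjusted p of 0.109, 0.0723 and 0.072).

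Of 17 circadian clock genes 10 fell, with a median log2 change of -1.17, and 1 fell with the muscle covariate. Nr1d1, the clock repressor REV-ERB alpha, went from 220, 291 and 336 CPM to 69.9, 75.8 and 84.2 CPM. Foxp3-WT skin averaged 75.2 ± 19.5 CPM untreated and 72.2 ± 45.4 CPM irradiated (SD, n = 3), so the untreated Foxp3-E2 libraries alone were high. The change on the log2 scale was -1.88 ± 0.34 (SE; edgeR adjusted p = 0.00116), with an adjusted p of 0.211 under the muscle covariate. Tef and Dbp, both output factors of the clock, fell by 1.59 and 1.63 on the log2 scale. Tef had 255, 276 and 261 CPM untreated against 78.6, 79.4 and 105 CPM irradiated. Dbp did not pass with the muscle covariate (adjusted p = 0.177). The hour of sampling was not stated in the labels.

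The largest changes outside these lists were in genes nearly silent in one of the groups. Uox, urate oxidase of purine breakdown, had 0 counts untreated and 46, 54.2 and 31 CPM irradiated, at least 170-fold higher, with untreated libraries below, and irradiated ones above, all Foxp3-WT values. Tubb3, a beta-tubulin best known from neurons, had 1 count untreated and 56.3, 39.7 and 46.7 CPM irradiated, a ratio of 531 (exact 95% interval 94.9 to 21000). Tubb3 after irradiation was at the level of Foxp3-WT skin, which averaged 30.8 and 46.2 CPM. Tdh, L-threonine dehydrogenase, went from 0.244, 1.98 and 0.278 CPM to 83.5, 108 and 96.6 CPM, above all 9 others.

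The largest falls were in genes that irradiated Foxp3-E2 skin had nearly lost. Dab1, an adaptor of reelin signalling, had 47.3, 24.1 and 20.3 CPM untreated and 2 counts in all irradiated, a ratio of 0.00605 (exact 95% interval 0.00073 to 0.022). Ppp2r2c, a regulatory subunit of protein phosphatase 2A, had 27.8, 7.07 and 11.4 CPM untreated and 1 count irradiated, a ratio of 0.00592 (interval 0.000149 to 0.0334). Skint5, of a family that selects gamma-delta T cells of the epidermis, fell from 84.8, 30.6 and 27.5 CPM to 0.544, 1.21 and 0 CPM. Mrgprb3, of the same receptor cluster as Mrgprb2, had 10.5, 10.5 and 5.28 CPM untreated and 0 counts irradiated, at least 31-fold lower. All 4 were also lower on average in irradiated than in untreated Foxp3-WT skin, at 3.92 against 10.9, 3.5 against 7.48, 8.49 against 27.8 and 1.15 against 11.3 CPM, changes that did not pass.

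The remaining lists gave few calls, to be read beside the 14.4% of all genes that rose and the 13.4% that fell. Of 17 inflammasome and cell death genes 5 rose and 1 fell; the rises were 2 without untreated replicate 2 or 3, and 3 without irradiated replicate 2. The fall was lost without any 1 of the 6 Foxp3-E2 libraries and without untreated Foxp3-WT replicate 2 or 3. With the muscle covariate 3 inflammasome genes rose and 0 fell. Of 14 sebaceous gland genes 3 rose and 1 fell, with 5 rises without untreated replicate 1 and no fall without untreated replicate 3 or irradiated replicate 1. Of 10 genes of the IL-6 and oncostatin family 3 rose and 2 fell, and the falls became 1 when any library but untreated Foxp3-E2 replicate 1 or irradiated Foxp3-WT replicate 2 was left out. Of 8 cytotoxic lymphocyte genes 2 rose, and 0 did without untreated replicate 2 or 3. Of 27 genes of interferon gamma response and class I presentation 2 rose, ranging from 0 without irradiated replicate 1 to 6 without untreated replicate 1. The muscle covariate left 0 calls in the IL-6 and oncostatin, cytotoxic lymphocyte and interferon gamma lists, and 0 falls in the sebaceous gland list. In the Schwann cell list 1 of 10 rose. In the B and plasma cell list 0 of 5 passed in edgeR, DESeq2 and limma voom, with 1 at an unadjusted p under 0.05. In the erythroid list 0 of 5 passed in these 3 tools, with 0 at an unadjusted p under 0.05.

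**Figure D4:**
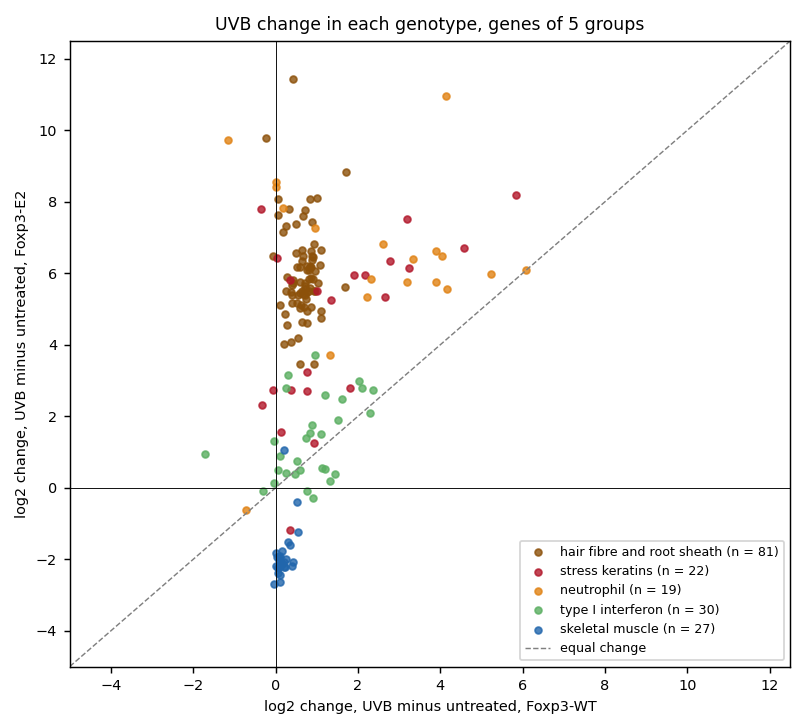
Log2 change from untreated to irradiated skin in Foxp3-WT (horizontal) and Foxp3-E2 (vertical) for the tested genes of 5 groups; each point is a gene and the dashed line marks equal change. Hair genes sit high on the vertical axis and below 2 on the horizontal one, neutrophil and stress keratin genes spread to the right towards the line, and most muscle genes lie below 0 for Foxp3-E2 skin.

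Set side by side, the gene groups differed in what the interaction called. Among the 81 hair fibre and root sheath genes, 79 had a higher change in Foxp3-E2 skin (5.64% of all genes did), as did 11 of 15 melanocyte genes and 19 of 28 cell division genes. Among the 22 stress keratin genes the count was 13, and among the 19 neutrophil genes it was 3. Of 27 muscle genes 9 (17 in DESeq2, 1 in limma voom) and of 17 clock genes 5 had a lower change in Foxp3-E2 skin (4.84% of all genes did). The median change in Foxp3-WT skin was 2.61 on the log2 scale for the neutrophil list, 0.97 for stress keratins, 0.86 for the interferon list and 0.13 for muscle. Genes past the threshold in Foxp3-E2 skin and not in Foxp3-WT skin are not thereby shown to differ, and the interaction is the test of that difference.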

How the data were processed

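RNA of 12 whole-skin libraries was analysed from the raw HTSeq counts per gene that the authors deposited. Per the submitters' processing notes, Trimmomatic 0.39, Picard 3.1.0, SAMtools 1.16, HTSeq 2.0.2 and GRCm38 were used; no aligner is named there. Of 53465 gene identifiers 53274 had a GENCODE symbol. Genes were filtered with filterByExpr, scaled by TMM and tested in edgeR 4.0.16 (R 4.3.3) with a robust quasi-likelihood fit over 4 groups, 8 residual degrees of freedom and Benjamini-Hochberg adjustment (threshold 0.05). SE is approximate, the log2 change divided by the root of F. DESeq2 1.42.0 and limma 3.58.1 were alternatives. The tests were run on simulated data first. For UVB in Foxp3-E2 skin they recovered 16% of 100 genes changed 2-fold and 66% of 100 changed 4-fold. They called 3 unchanged genes. A gene or list without a call may thus still hold changes of this size. Folds against 0 counts used a floor of 3 counts per group, and intervals cover counting error only. Genes were named by size of change, p within each list, and a fixed set. The genes, the 42 lists and the comparison were chosen with earlier results of these data known.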

Additional observations from a re-analysis of the deposited data

Results flagged for a closer look

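The difference between the UVB change in Foxp3-E2 and that in Foxp3-WT skin, the interaction term of edgeR's quasi-likelihood test (adjusted p under 0.05), passed for 1585 genes. Among the 94 named genes it passed for 66, of which 47 had a higher and 19 a lower change in Foxp3-E2 skin. Over all tested genes 5.64% had a higher and 4.84% a lower change. The named genes were chosen largely for their change in Foxp3-E2 skin, which is part of the difference tested. A high share among them was thus built in. Values below are that difference on the log2 scale. Hair, pigment and cell division genes had differences of Krt25 4.76, Krt73 4.98, Krt75 2.17, Krt86 5.10, Krtap13-1 6.94, Tchh 4.44, Lef1 5.26, Hoxc13 3.76, Dct 4.61, Mlana 6.04, Mki67 3.17, Top2a 2.78 and Cdc20 3.50. Keratinocyte genes had differences of Krt6a 3.77, Krt17 2.36, Gjb2 5.45, Gjb6 6.40, Sprr2d 4.30, Casp14 2.52, Lce3c 2.21, Klk6 3.54, Rbp2 2.46, Alox8 4.49 and Slpi 4.48. The other named genes with a higher change were Arg1 3.39, Cd14 2.97, Col12a1 4.24, Col6a3 1.92, Dusp2 4.67, Hif1a 1.38, Il1rn 2.20, Il33 2.09, Il4ra 2.17, Junb 1.70, Mmp13 5.82, Pmaip1 3.04, Saa3 4.63, Slc2a1 3.00, Slc7a11 6.89, Stfa2 4.20, Tdh 6.22, Tnc 5.69 and Tubb3 8.03. Fitted values for genes at 0 counts in untreated Foxp3-E2 skin depend on the prior count and are no bound: Csf3r 10.90, Krtap24-1 11.01, Tyr 9.46 and Uox 9.84. A lower change in Foxp3-E2 skin was found for Alox12e -2.29, Ccl27a -2.61, Ccng1 -2.69, Col4a6 -4.98, Dab1 -5.66, Dbp -1.89, Flg2 -2.62, Gstm1 -1.69, Krt15 -2.40, Krt77 -3.88, Lpl -1.70, Mrgprb2 -5.83, Nr1d1 -1.83, Orm1 -1.88, Pnpla2 -1.79, Ppp2r2c -5.85, Skint5 -4.43, Tef -1.52 and Ttn -2.31. Mrgprb2 had 0 counts in irradiated Foxp3-E2 skin, so its value likewise depends on the prior count. Groups of 3 libraries were not tested for outlying samples.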

How the results depend on the processing

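Of the 94 named genes, 91 kept their call under every scaling, filter, tool and left-out library in which they were tested. The exceptions were Adipoq, Cd207 and Krt10. A gene without a test in a setting was not counted as lost there. Acta1, Ckm and Ttn had no test where the muscle list was left out before scaling. With the muscle covariate 18 calls ended. The 4202 genes changed in Foxp3-E2 skin became 1162 when tested against a 2-fold change, 892 with the muscle covariate and 1 with the hair covariate, and 2979 to 4622 with 1 library left out. The 1585 genes with a different change between the genotypes became 2438 with no filter on low counts, 419 against a 2-fold change, 345 with the muscle covariate, 1 with the hair covariate and 878 to 2585 with 1 library left out. The direction reversed with the hair covariate for Krt25 (-0.73), Tchh (-0.60), Krt75 (-0.44), Areg (-0.26), Ckm (0.016), Ttn (0.81) and Dbp (0.37), in log2 units. Krt25 and Tchh belong to the lists that make up this covariate, which takes up their change by construction. For the other genes named here the cause was not tested. Leaving out irradiated or untreated Foxp3-WT libraries was chosen after seeing the data. No paired analysis was possible because the labels give no replicate numbers, and the numbers used here follow accession order. Depth of 2809142 to 4741726 counts limits genes of few counts, Foxp3 among them.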
